A study of Mus musculus with 6 samples.

Results

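The Frizzled receptors are the family of membrane receptors that bind secreted Wnt proteins. The 10 members of the mouse family, Fzd1 to Fzd10, were taken by gene symbol from a table of 49452 genes. RNA was sequenced from forelimb bud ectoderm of mouse embryos at E10.5 in 6 libraries, each from both forelimbs of 1 embryo. The 3 wild-type embryos came from C57BL/6 inbred crosses. The 3 Sp8 null embryos came from crosses between mice heterozygous for the Sp8-Cre-ERT2 allele. On this description the null embryos and the controls were not littermates, and effects of cross and of genotype cannot be separated. The number that starts each sample name, whose meaning is not stated, was 4 for embryo 1 and 5 for embryos 2 and 3 of both groups. The labels give the background strain of both groups as C57BL6J and list no other allele or agent, beyond the trypsin used to free the ectoderm in both. Of the 10 receptors, 7 passed a filter of at least 1 FPKM in at least 3 libraries, as did 12133 genes in all. FPKM is fragments scaled to transcript length and to the mapped fragments of the library, so levels of different receptors can be set side by side on this scale.

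A Frizzled receptor captures a Wnt ligand with an extracellular cysteine-rich domain and passes the signal to the cytoplasmic protein Dishevelled. Together with the co-receptors Lrp5 and Lrp6 it protects beta-catenin from destruction, and in another branch, called planar cell polarity, it works with Vangl, Celsr and Prickle proteins to orient cells within a sheet. Wnt signalling in the limb ectoderm is needed to form the apical ectodermal ridge, the strip of epithelium that keeps the limb bud growing, and Sp8 is a zinc finger transcription factor needed to maintain that ridge.

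Sp8 itself followed the genotype labels. Sp8 (chromosome 12, 118846329 to 118852576, GRCm38) was at 0.766, 0.46 and 1.14 FPKM in Sp8 null embryos 1, 2 and 3 and at 8.35, 11 and 13.5 FPKM in wild-type embryos 1, 2 and 3. Relative to wild-type embryo 1, depth ranged from 0.84 to 1.04, and absolute depth is unknown because the values are not counts. All 12 markers of limb ectoderm passed the filter, and their summed level ranged over 812 to 887 FPKM in wild type against 667 to 812 FPKM in Sp8 null. The one of them with the highest mean was Perp, an epithelial membrane protein, at 230 ± 18.1 FPKM in wild type against 178 ± 18.7 FPKM in Sp8 null (SD, n = 3). That difference did not pass the test (limma adjusted p = 0.0626). Of the 12 markers 7 had a negative and 5 a positive log2 difference. Of the 12, 2 were called, against 6.83% of all tested genes, and both were named after their values were seen. The epithelial adhesion molecule Epcam fell from 110 ± 6.39 to 76.5 ± 10.9 FPKM (limma adjusted p = 0.0313), and the ectodermal transcription factor Tfap2a rose from 35.5 ± 1.81 to 51.6 ± 5.24 FPKM (limma adjusted p = 0.0163).

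Among the Frizzled receptors, Fzd1 fell to 22.9% of its wild-type level in Sp8 null ectoderm, and no other member passed the test. Fzd1 was the most abundant Frizzled transcript of wild-type ectoderm. By its mean it stood behind 4 other members in Sp8 null ectoderm, where its range overlapped that of Fzd2. It was at 46.2, 55.7 and 51.8 FPKM in wild-type embryos 1, 2 and 3 and at 11.1, 11.1 and 13.1 FPKM in Sp8 null embryos 1, 2 and 3. The lowest wild-type library was above the highest Sp8 null library by a wide margin, and both groups were tight. The wild-type mean was 51.2 ± 4.75 FPKM, against 11.8 ± 1.15 FPKM for Sp8 null (SD, n = 3 each), a ratio of 4.36. On the log2(FPKM + 1) scale the difference was -2.03 (SE 0.098, 95% interval -2.26 to -1.80, limma, Benjamini-Hochberg adjusted p = 5.22e-05). Of the 1005 tested genes whose wild-type mean was at least that of Fzd1, 4 fell further, and they were Wnt5a, Tnpo1 and the short RNA genes Mir1905 and Snord88c, named after their values were seen. In bulk tissue, fewer cells that express a gene and less RNA per cell cannot be told apart.

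Fzd1 (ENSMUSG00000044674; GRCm38, chromosome 5, 4753839 to 4758035, minus strand) is a protein-coding gene with 1 transcript of 1 exon, which holds a coding sequence of 1926 nt and no intron. No exon of another annotated gene overlaps it. Its closest relatives by coding sequence are Fzd2 and Fzd7, at 82.0% and 78.6% identical nucleotides over the aligned positions. None of the 4148 windows of 50 nt along the Fzd1 transcript occurs in the annotated transcript of any other gene, on either strand. The same held for Fzd2 and Fzd7, so an exact 50-nt match tells the 3 receptors apart.

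The sequence just before the transcription start is shown for Fzd1, the receptor that fell, and for Fzd7, its nearest relative with a RefSeq promoter entry. Both are the 250 bases before the RefSeq start of assembly GRCm38.p6, written 5′ to 3′ on the gene's own strand. Capitals mark the motifs searched on both strands: the GC box GGGCGG, a sequence bound by many Sp family factors, the CACCC box CACCC, the TCF/LEF core CTTTGA, bound by the transcription factors that partner beta-catenin, and the TATA box TATAAA. Overlapping matches were all counted.
Fzd1, chr5:4758217-4758466, minus strand: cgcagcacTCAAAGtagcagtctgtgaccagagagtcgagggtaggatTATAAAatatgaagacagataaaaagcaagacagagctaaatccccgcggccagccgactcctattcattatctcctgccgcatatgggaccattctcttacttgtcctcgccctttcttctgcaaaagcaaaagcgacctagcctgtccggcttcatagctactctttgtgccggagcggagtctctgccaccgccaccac
Fzd7, chr1:59481897-59482146, plus strand: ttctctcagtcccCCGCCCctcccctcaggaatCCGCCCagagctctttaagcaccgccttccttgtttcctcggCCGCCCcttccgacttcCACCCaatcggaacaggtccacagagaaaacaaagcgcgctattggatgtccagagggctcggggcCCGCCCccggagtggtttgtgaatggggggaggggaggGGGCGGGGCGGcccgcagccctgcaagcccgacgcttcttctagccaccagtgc
The Fzd1 window held 1 TCF/LEF core and 1 TATA box, and no match to the GC box or the CACCC box. The Fzd7 window held 6 GC boxes and 1 CACCC box, and no match to the other 2 motifs. Of 32851 promoter windows of the same length, 32.7% held a GC box, 52% a CACCC box, 13.8% a TCF/LEF core and 12.4% a TATA box. The Fzd1 window had 12 CpG dinucleotides and 51.2% G and C, and that of Fzd7 had 17 and 65.2%, against a median of 6 CpG and 52.4% over all windows. The RefSeq starts lie 181 nt upstream of the annotated GENCODE start for Fzd1 and 277 nt upstream for Fzd7. These matches describe the letters of the windows, and no binding was measured.

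**Figure D1:**
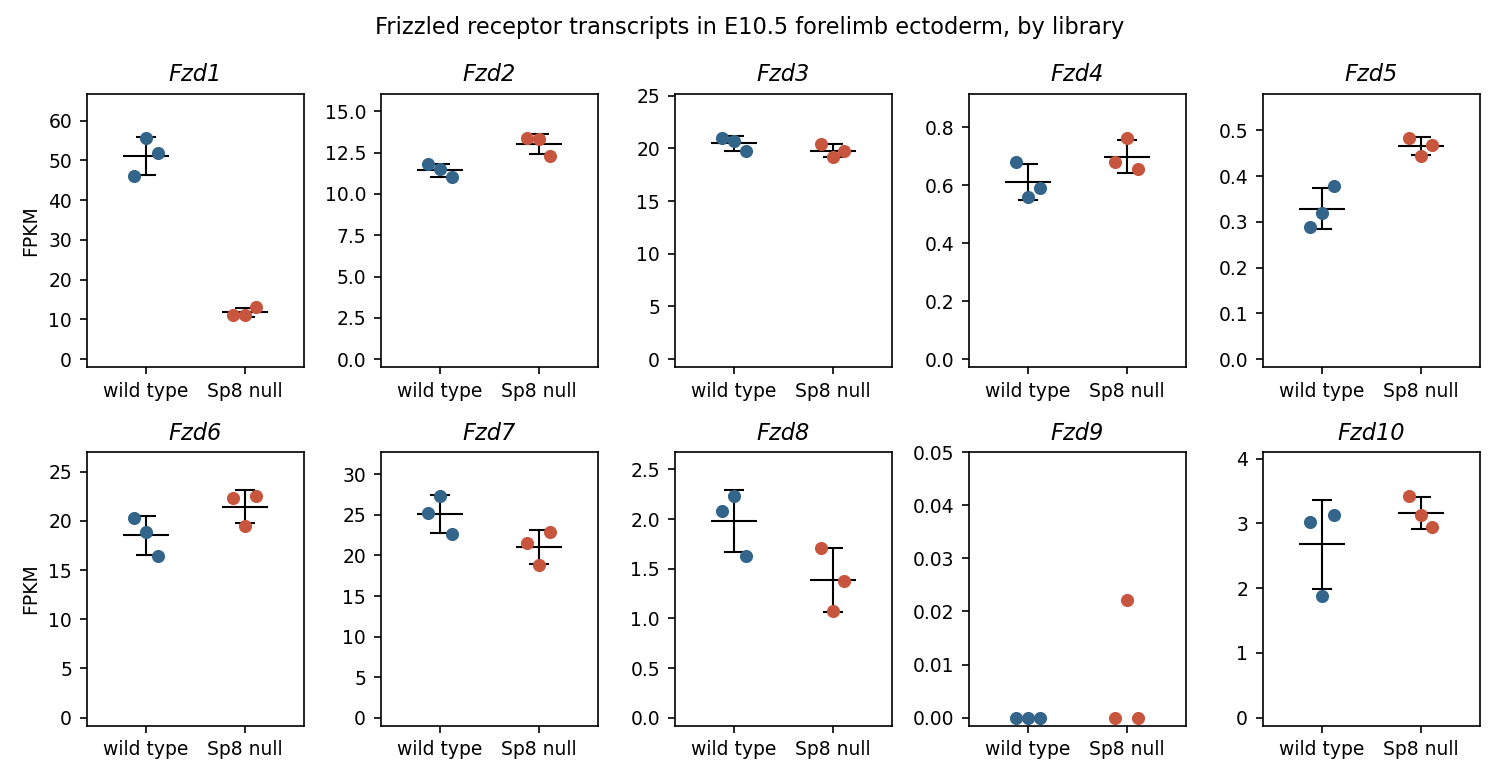
FPKM of each Frizzled receptor in the 3 wild-type (blue) and 3 Sp8 null (red) libraries, 1 panel per gene with its own linear axis; points are libraries, and bars are the mean ± SD except for Fzd9, which is listed at 0 in 5 of 6 libraries. Fzd1 drops from between 46.2 and 55.7 to between 11.1 and 13.1 FPKM, while the groups of Fzd3, Fzd4, Fzd6, Fzd7, Fzd8 and Fzd10 overlap.

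Of the other receptors of the Fzd1 subfamily, Fzd7 had a lower and Fzd2 a higher mean in Sp8 null, and neither passed the test. Fzd7 (chromosome 1, 59482424 to 59486955) was at 25.3, 27.3 and 22.7 FPKM in wild-type embryos 1, 2 and 3 and at 21.6, 18.8 and 22.9 FPKM in Sp8 null embryos 1, 2 and 3. Its highest Sp8 null library lay just above its lowest wild-type library. The log2 difference was -0.24 (SE 0.10, 95% interval -0.47 to -0.01, limma adjusted p = 0.196), and its unadjusted p of 0.0448 in limma is a level reached by 24% of tested genes. Fzd2 (chromosome 11, 102604396 to 102608058) was at 11.8, 11.5 and 11 FPKM in wild type against at 13.4, 13.3 and 12.3 FPKM in Sp8 null, in the order of the embryos. Its groups did not overlap, with Sp8 null higher. Together with Fzd1, where Sp8 null was lower, this made 2 of 7 tested receptors without overlap, against 29.8% of tested genes in either direction (8.63% higher and 21.1% lower in Sp8 null). The log2 difference of 0.17 did not pass the test (SE 0.075, 95% interval -0.0007 to 0.35, limma adjusted p = 0.210).

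Fzd3 and Fzd6 are the members best known for planar cell polarity, and both were well expressed. Fzd3 (chromosome 14, 65192449 to 65262463) was at 21.0, 20.7 and 19.7 FPKM in wild-type embryos 1, 2 and 3 and at 20.4, 19.2 and 19.7 FPKM in Sp8 null embryos 1, 2 and 3, so the groups overlapped. Its log2 difference of -0.05 had the narrowest interval of the 7 receptors, from -0.20 to 0.11 (limma adjusted p = 0.714), and it turned to 0.05 under upper-quartile scaling. Fzd6 (chromosome 15, 39006034 to 39038188) was at 20.3, 18.9 and 16.4 FPKM in wild type against at 22.3, 19.5 and 22.5 FPKM in Sp8 null. The library of Sp8 null embryo 2 lay within the wild-type range, and the difference of 0.20 did not pass (95% interval -0.03 to 0.43, limma adjusted p = 0.269). Part of the Fzd6 exons is shared with Gm26704, a gene on the other strand. Gm26704 itself was listed between 0.0727 and 0.198 FPKM, and 2.41% of the 50-nt windows of Fzd6 fall in it.

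Fzd8 and Fzd10 were low. Fzd8 (chromosome 18, 9212163 to 9218136) was at 2.08, 2.23 and 1.63 FPKM in wild-type embryos 1, 2 and 3 and at 1.71, 1.07 and 1.38 FPKM in Sp8 null embryos 1, 2 and 3. The groups overlapped by 1 library, and the log2 difference was -0.32 (SE 0.14, 95% interval -0.65 to 0.01, limma adjusted p = 0.219). Fzd10 (chromosome 5, 128600844 to 128604093) was at 3.02, 1.88 and 3.13 FPKM in wild type against at 3.42, 3.13 and 2.94 FPKM in Sp8 null. Wild-type embryo 2 stood below the other libraries, and without it the log2 difference of 0.20 (95% interval -0.16 to 0.56, limma adjusted p = 0.492) was 0.03.

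Fzd4, Fzd5 and Fzd9 stayed under the filter and were not tested. Fzd4, which also serves as the receptor for the non-Wnt ligand Norrin, spanned 0.558 to 0.678 FPKM in wild type against 0.654 to 0.763 FPKM in Sp8 null. Norrin's gene Ndp was at most 0.0538 FPKM in any library, while the Fzd4 partner Tspan12 averaged 14.3 ± 2.39 FPKM in wild type against 11.6 ± 1.67 FPKM in Sp8 null (SD, n = 3). Fzd5 was at 0.289, 0.320 and 0.378 FPKM in wild-type embryos 1, 2 and 3 and at 0.484, 0.445 and 0.468 FPKM in Sp8 null embryos 1, 2 and 3. All Sp8 null libraries were above all wild-type libraries, at levels under 1 FPKM, and the Fzd5 transcript shares 16.6% of its 50-nt windows with Gm38058 on the other strand. With no filter on low values Fzd5 had a log2 difference of 0.14 (SE 0.06, limma adjusted p = 0.347). Fzd9 was listed at 0 in 5 libraries and at 0.0221 FPKM in Sp8 null embryo 2.

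**Figure D2:**
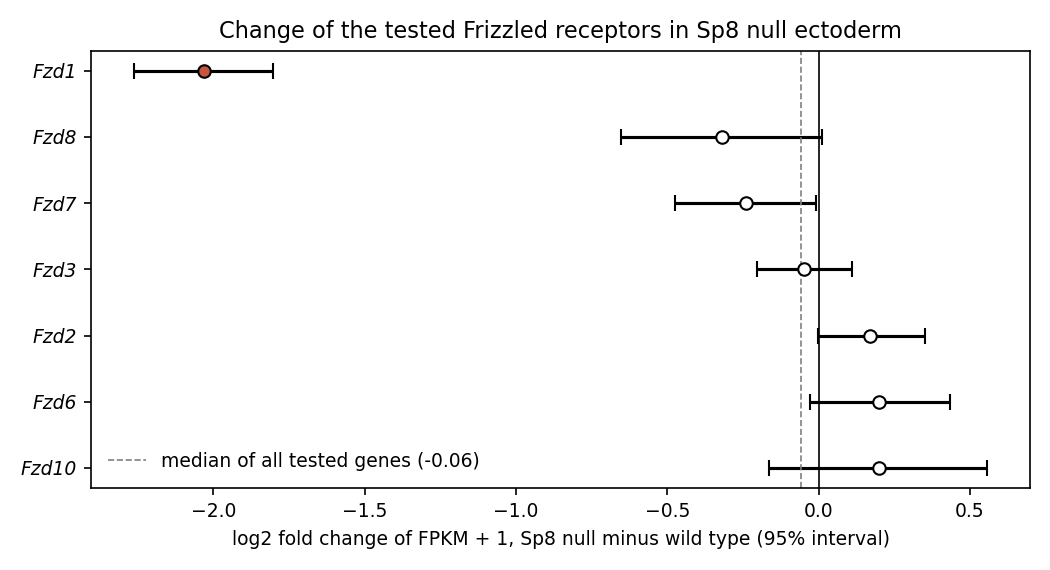
Log2 fold change of FPKM + 1 (Sp8 null minus wild type, n = 3 each) for the 7 tested Frizzled receptors, with 95% intervals from limma; the filled point passed an adjusted p of 0.05 and the dashed line is the median of all tested genes. Fzd1 stands at -2.03, and the others lie between -0.32 and 0.20.

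Of the 7 tested receptors, 4 had a lower mean and 3 a higher mean in Sp8 null, and 1 was called, against 6.83% of all tested genes (829 of 12133) called in either direction, 5.15% called lower and 1.68% called higher. Of all calls 24.6% were higher in Sp8 null, a share that was 42.0% under upper-quartile scaling. The median log2 difference was -0.05 over the 7 receptors and -0.06 over all tested genes. The count of 1 held with each library left out in turn, and that 1 was Fzd1 each time. To set Fzd1 against its relatives within each embryo, its log2(FPKM + 1) was compared with that of each of the other 6 tested receptors. Relative to Fzd7 it was at 0.84, 1.0 and 1.15 in wild-type embryos 1, 2 and 3 and was at -0.90, -0.72 and -0.76 in Sp8 null embryos 1, 2 and 3. The sign relative to Fzd7 therefore turned in every Sp8 null embryo, as it did relative to Fzd3 and Fzd6. Relative to Fzd2 it stayed positive in Sp8 null embryo 3, at 0.09. Relative to Fzd8 and Fzd10 it stayed positive in every Sp8 null embryo. Over the 6 pairs the shift between the genotypes ranged from -1.71 against Fzd8 to -2.24 against Fzd6. The two-sided exact permutation p was 0.1 for each pair, also after adjustment over the 6 pairs, which is the smallest that 3 libraries against 3 can give.

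The summed Frizzled level was 131, 139 and 127 FPKM in wild-type embryos 1, 2 and 3 and 95.2, 87.3 and 95.8 FPKM in Sp8 null embryos 1, 2 and 3. Every Sp8 null library was below every wild-type library. The mean sum was lower by 39.5 FPKM in Sp8 null, and the mean of Fzd1 alone fell by 39.5 FPKM. Without Fzd1 the other 9 receptors summed to 81.1 ± 4.88 FPKM in wild type against 81.0 ± 4.16 FPKM in Sp8 null (SD, n = 3). That difference is far smaller than the spread between embryos, and the sum mixes receptors with higher and with lower means in Sp8 null. These sums are a description and were not tested.

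**Figure D3:**
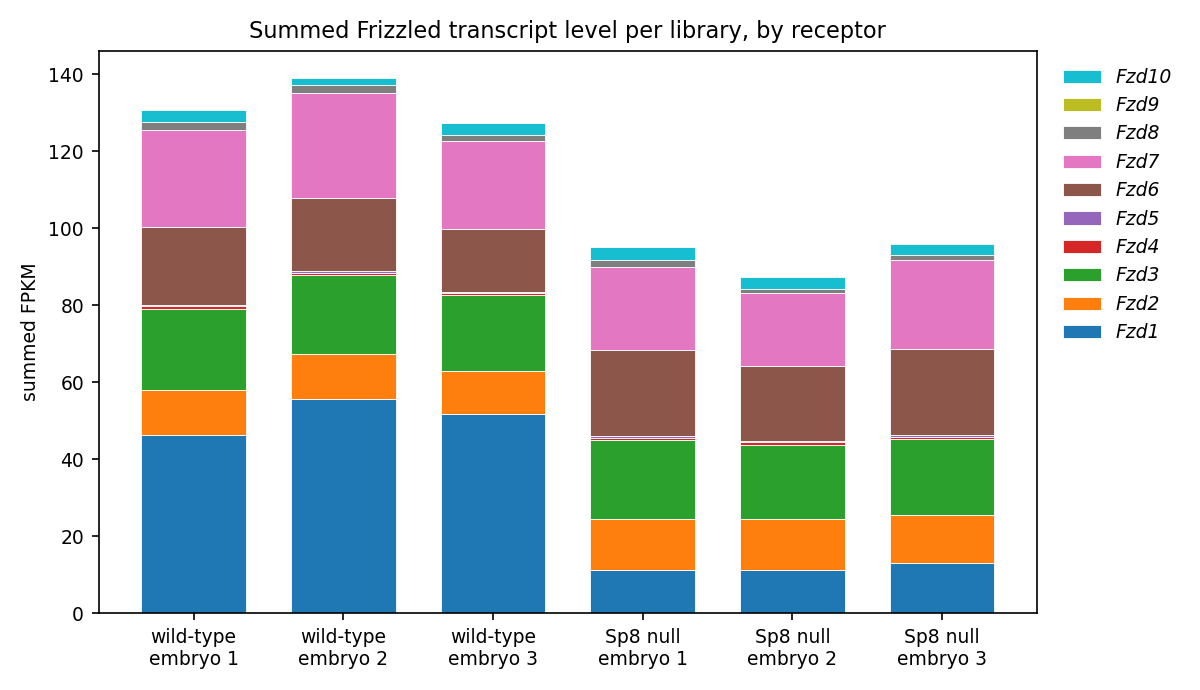
Summed FPKM of the 10 Frizzled receptors in each of the 6 libraries, stacked by receptor on a linear axis from 0. The bars drop from between 127 and 139 to between 87.3 and 95.8 FPKM, and the bottom segment, Fzd1, carries the drop.

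The make-up of the receptor pool differed between the genotypes, given here as a description with no test. In wild type Fzd1 held 38.7 ± 2.89% of the summed Frizzled FPKM (SD, n = 3), ahead of Fzd7 with 18.9 ± 0.962%, Fzd3 with 15.5 ± 0.575%, Fzd6 with 14 ± 1.38% and Fzd2 with 8.63 ± 0.366%. In Sp8 null Fzd1 held 12.7 ± 0.987%, and Fzd6 (23.1 ± 0.636%), Fzd7 (22.7 ± 1.16%) and Fzd3 (21.3 ± 0.700%) led. The subfamily of Fzd1, Fzd2 and Fzd7 together went from 66.3 ± 2.22% of the pool in wild type to 49.4 ± 0.880% in Sp8 null. A share rises when another member falls, so these shares alone do not show how the level of Fzd3, Fzd6 or Fzd7 changed. Between wild type and Sp8 null the mean level of Fzd6 was 18.5 against 21.4 FPKM, that of Fzd7 25.1 against 21.1 FPKM and that of Fzd3 20.5 against 19.8 FPKM, and none of these differences passed the test.

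In wild type the order of the levels was Fzd1, Fzd7, Fzd3, Fzd6, Fzd2, Fzd10, Fzd8, Fzd4, Fzd5 and Fzd9. Each receptor's lowest library was above the next receptor's highest, except that the ranges of Fzd3 and Fzd6 overlapped, as did those of Fzd10 and Fzd8. In Sp8 null the order was Fzd6, Fzd7, Fzd3, Fzd2, Fzd1, Fzd10, Fzd8, Fzd4, Fzd5 and Fzd9. The first 3, Fzd6 (19.5 to 22.5 FPKM), Fzd7 (18.8 to 22.9 FPKM) and Fzd3 (19.2 to 20.4 FPKM), could not be ranked beyond their spread, and neither could Fzd2 (12.3 to 13.4 FPKM) and Fzd1 (11.1 to 13.1 FPKM). Wild-type ectoderm thus had 1 leading Frizzled transcript, and Sp8 null ectoderm had 3 at about the same level.

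A comparison of the authors' own, in which the control is taken here to be wild type, stands beside the FPKM values. For Fzd1 the authors' deposited table lists a fold change of -4.09 and a p-value of 0. The fold changes that the authors' deposited table lists for the other tested members are 1.16 for Fzd2, -1.02 for Fzd3, 1.18 for Fzd6, -1.16 for Fzd7, -1.37 for Fzd8 and 1.17 for Fzd10. The direction was the same as in FPKM for all 7. In that column of the authors' deposited table Fzd2 has a p-value of 0.00318, Fzd6 of 0.00251, Fzd7 of 0.00822 and Fzd8 of 0.00276. Fzd5, under the filter here, has 0.0127 with a fold change of 1.36 in the authors' deposited table, while Fzd3 has 0.742, Fzd4 has 0.173 and Fzd10 has 0.116. Among all tested genes, 31.3% have a p-value under 0.05 in the authors' deposited table. Apart from Fzd1, the changes it lists for the tested receptors are of 1.37-fold or less.

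The level of Fzd1 was set beside markers of other tissues that ectoderm preparations could hold. The 14 limb mesenchyme markers, 11 of them tested, summed to 96.3 to 143 FPKM in wild type against 99.8 to 237 FPKM in Sp8 null, with Tcf21 listed at 0 throughout. Of the 11 tested, 6 had a positive and 5 a negative log2 difference, with a median of 0.67. Meis1, one of those with a negative difference, had the highest mean (41.7 ± 3.8 FPKM in wild type against 35.9 ± 6.11 FPKM in Sp8 null, SD, n = 3). It was lowest, at 29.2 FPKM, in Sp8 null embryo 2, the library with the highest sum of these markers. Sp8 null embryo 2 held the sum of 237, and Fzd1 was 11.1 FPKM both there and in Sp8 null embryo 1, whose sum was 110. Without Sp8 null embryo 2 the log2 difference of Fzd1 was -2.0. Of these markers Lmx1b was called higher and Msx1 lower. The 9 erythroid markers in the table, led by the embryonic globin Hbb-y, summed to 428 FPKM in wild-type embryo 1, between 11.7 and 36.7 FPKM in the other wild-type libraries and between 62.8 and 164 FPKM in Sp8 null. Without wild-type embryo 1 the log2 difference of Fzd1 was -2.1. The 10 endothelial markers summed to at most 4.6 FPKM in any library, with 9 of them under 1 FPKM throughout and Egfl7 highest. The 9 macrophage markers, led by Fcer1g, summed to 0.276 to 1.23 FPKM in wild type against 1.68 to 3.23 FPKM in Sp8 null. These sums did not overlap, and none of the 9 passed the filter. Of the 6 neural crest and neural markers with values only Erbb3 was tested, at 8.94 ± 0.549 FPKM in wild type against 9.63 ± 0.811 FPKM in Sp8 null (SD, n = 3). The part of these cell types in the Fzd1 difference was not tested.

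By the root mean square difference of log2(FPKM + 1), each gene centred on its mean over the 6 libraries, the pattern most like that of Fzd1 among 12132 other tested genes was that of Slc35d3 (0.088), followed by Lmo7 (0.136) and Thbs1 (0.14). Slc35d3, a nucleotide sugar transporter family member, had 2.95 ± 0.178 FPKM in wild type against 0.0126 ± 0.0144 FPKM in Sp8 null (SD, n = 3). Lmo7, a junctional LIM domain protein, went from 18.2 ± 0.484 to 3.82 ± 0.973 FPKM, and Thbs1, the matrix protein thrombospondin, from 15.7 ± 1.98 to 3.82 ± 0.637 FPKM. This likeness is a description over 6 libraries that fall into 2 genotypes, and it depends on the pseudocount of 1. Slc35d3 was near 0 in Sp8 null, so its ratio of FPKM is far larger than the 4.36 of Fzd1, and its closeness is given on the log2(FPKM + 1) scale alone.

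The other parts of the Wnt receptor machinery were read from 8 lists with 83 genes in all, of which 60 were tested. Of these, 17 were called, or 28.3% against 6.83% of all tested genes, with 13 lower and 4 higher in Sp8 null and a median log2 difference of 0.01. The lists were chosen with earlier results of these data known. This share, and the counts of each list below, therefore cannot show whether Wnt pathway genes were called more often than other genes. Of the 17 calls, 9 held in every fit that left out 1 library and 2 (Vangl1 and Dvl3) held in none.

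Co-receptors and turnover factors mostly did not pass the test. Of the 7 tested co-receptors and other Wnt receptors (median log2 difference -0.13), 1 was called, the tyrosine kinase Ror1, which binds Wnt5a. It rose from 5.05 ± 0.947 to 8.82 ± 1.22 FPKM (SD, n = 3; log2 difference 0.70, limma adjusted p = 0.0341), and this call held in 1 of 6 fits that left out a library. Lrp6 was at 23.1 ± 0.348 FPKM in wild type against 21.6 ± 0.906 FPKM in Sp8 null, and Lrp5 at 12.4 ± 1.45 and 10.4 ± 1.48 FPKM (SD, n = 3). Of 7 tested genes that act on Frizzled turnover and trafficking (median log2 difference 0.56), 1 fell and 1 rose. Rspo2, a secreted R-spondin that shields Frizzled receptors from removal, fell from 14 ± 1.11 to 0.227 ± 0.0645 FPKM (log2 difference -3.61, limma adjusted p = 5.68e-06). Lgr4, a receptor for R-spondins, rose from 6.96 ± 0.862 to 10.9 ± 0.346 FPKM (log2 difference 0.59, limma adjusted p = 0.0157), a call that was lost without Sp8 null embryo 2 or without wild-type embryo 2. Znrf3, an E3 ligase that removes Frizzled from the cell surface, was at 47.5 ± 3.38 FPKM in wild type against 50.4 ± 4.65 FPKM in Sp8 null, and its log2 difference of 0.08 did not pass (limma adjusted p = 0.623).

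None of the 4 tested relatives that carry a Frizzled-type cysteine-rich domain was called (limma; also 0 of 4 at an unadjusted p under 0.05), with a median log2 difference of 0.0. Smo, the Hedgehog signal transducer of the same receptor class, was at 36.9 ± 3.51 FPKM in wild type against 35.0 ± 1.56 FPKM in Sp8 null, and the secreted Wnt binder Sfrp1 was at 12.5 ± 0.605 and 13.2 ± 1.22 FPKM (SD, n = 3).

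Among the ligands, 4 of 10 tested Wnt genes were called, 3 lower and 1 higher, with a median log2 difference of -0.05. Over all tested genes 6.83% were called. Wnt5a, the ligand most linked to planar cell polarity in the limb, was at 64.5, 66.8 and 62.8 FPKM in wild-type embryos 1, 2 and 3 and at 12.3, 14.9 and 12.8 FPKM in Sp8 null embryos 1, 2 and 3. Its mean fell to 20.6% of wild type, beside 22.9% for Fzd1 (log2 difference -2.20, SE 0.085, limma adjusted p = 1.5e-05). Wnt7a, the dorsal ectoderm ligand, fell from 32.5 ± 4.50 to 16.2 ± 3.93 FPKM (limma adjusted p = 0.0188), a call lost without Sp8 null embryo 1, wild-type embryo 2 or wild-type embryo 3. Wnt10b rose from 4.23 ± 0.104 to 12.7 ± 1.89 FPKM (limma adjusted p = 0.000670). Wnt3, named after its values were seen, fell from 10.4 ± 0.806 to 6.96 ± 0.962 FPKM (limma adjusted p = 0.0373), a call kept in 1 of 6 fits that left out a library, the one without Sp8 null embryo 3. All 19 Wnt genes together summed to 160 to 171 FPKM in wild type against 97.5 to 113 FPKM in Sp8 null.

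**Figure D4:**
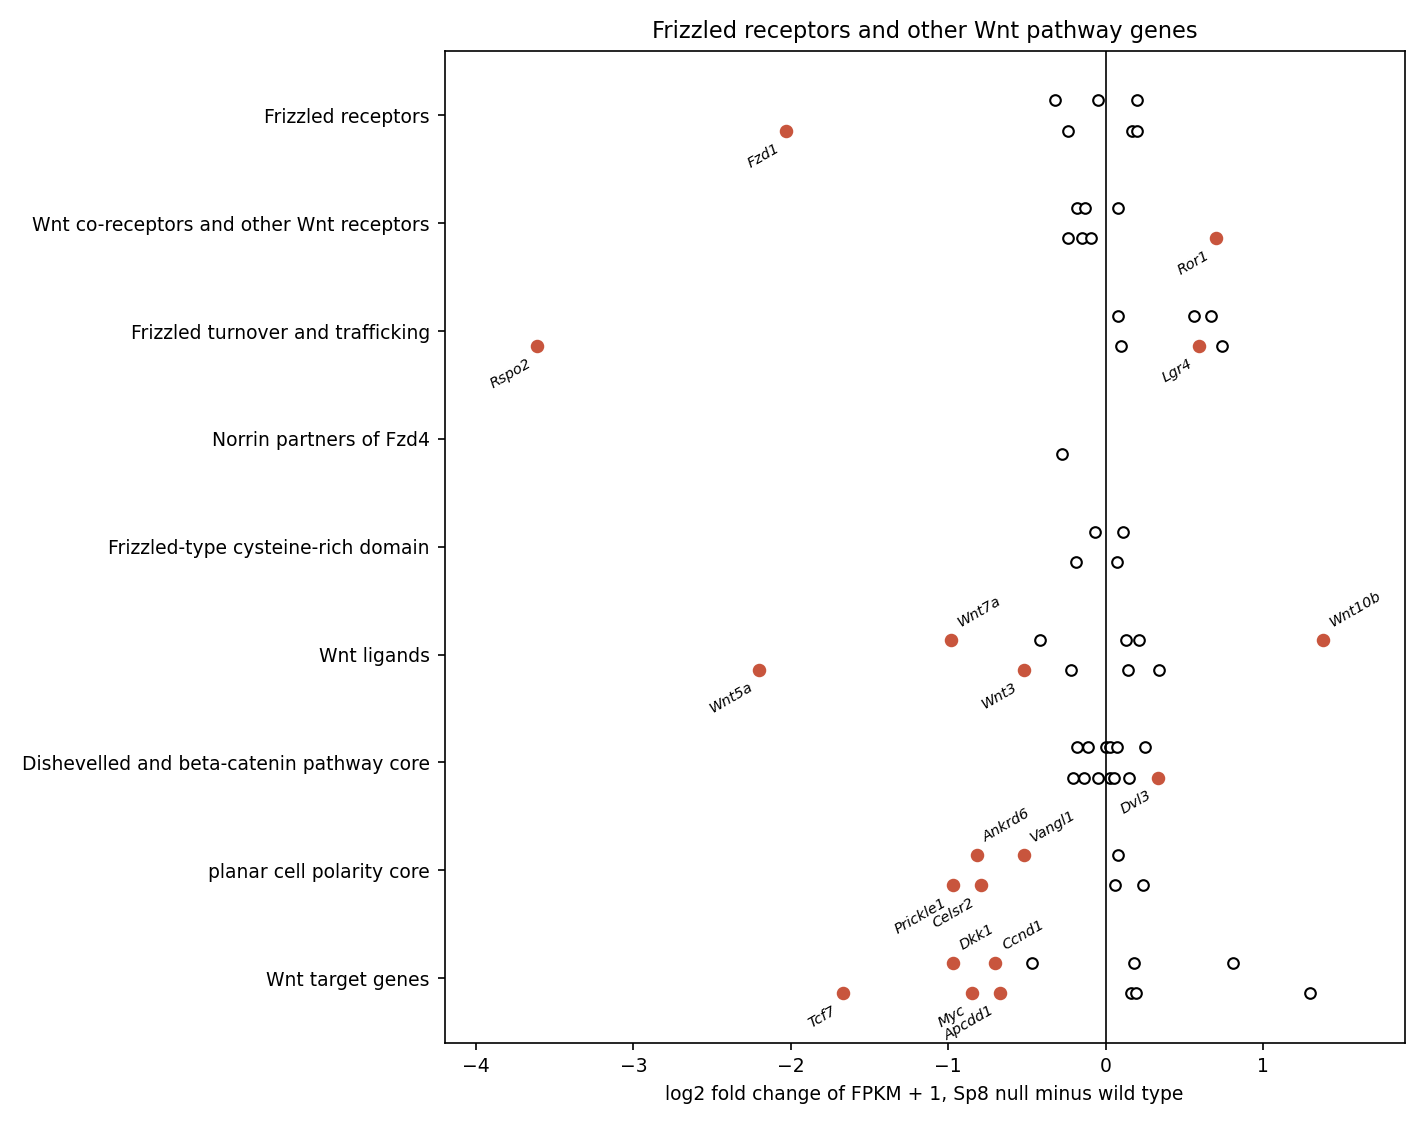
Log2 fold change of FPKM + 1 (Sp8 null minus wild type) of each tested gene in the Frizzled family and 8 lists of Wnt pathway genes; filled, named points passed an adjusted p of 0.05 in limma and open points did not. Fzd1 and Wnt5a lie near -2, Rspo2 lies at -3.61, and 4 of 7 planar cell polarity genes are filled on the lower side.

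Downstream of the receptors, the planar cell polarity core had 4 of 7 tested genes called, all lower, with a median log2 difference of -0.52. Over all tested genes 5.15% were called lower. This list is small and was chosen with earlier results of these data known. Celsr2, a cadherin of the pathway, fell from 11.5 ± 0.571 to 6.24 ± 0.853 FPKM (SD, n = 3; limma adjusted p = 0.00624). Prickle1, a cytoplasmic component, fell from 4.90 ± 0.636 to 2.02 ± 0.341 FPKM (limma adjusted p = 0.00634), and Ankrd6, the mouse diversin, from 8.60 ± 1.15 to 4.41 ± 0.379 FPKM (limma adjusted p = 0.00751). Vangl1, named after its values were seen, fell from 5.93 ± 0.464 to 3.84 ± 0.554 FPKM (limma adjusted p = 0.0390), a call lost in each of the 6 fits that left out a library and under upper-quartile scaling (limma adjusted p = 0.0611). The more abundant Vangl2 was at 26.7 ± 1.36 FPKM in wild type against 27.8 ± 1.2 FPKM in Sp8 null (limma adjusted p = 0.678). Of the 13 tested genes of the Dishevelled and beta-catenin core 1 was called, Dvl3, a Dishevelled protein that relays the signal from Frizzled. It had 15.9 ± 0.214 FPKM in wild type against 20.2 ± 0.461 FPKM in Sp8 null (SD, n = 3; limma adjusted p = 0.0298), and no fit that left out a library called it.

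Of 11 tested Wnt target genes 5 were called, all lower, with a median log2 difference of -0.47. Over all tested genes 5.15% were called lower. Of the 11, 5 had a positive log2 difference, and none of these was called. Among them Nkd2 went from 3.15 ± 2.07 to 9.59 ± 6.83 FPKM (SD, n = 3; limma adjusted p = 0.16). Dkk4 went from 0.867 ± 0.448 to 2.28 ± 0.819 FPKM (limma adjusted p = 0.0907). The groups of both did not overlap. Tcf7, a transcription factor that binds beta-catenin, fell from 30.9 ± 3.40 to 9.05 ± 1.08 FPKM (SD, n = 3; limma adjusted p = 0.000299). Apcdd1, a membrane inhibitor of Wnt signalling, fell from 20.2 ± 2.47 to 12.3 ± 0.0963 FPKM (limma adjusted p = 0.00846), and Dkk1, a secreted inhibitor that binds Lrp6, from 2.29 ± 0.384 to 0.682 ± 0.168 FPKM (limma adjusted p = 0.00829). Ccnd1 and Myc, named after their values were seen, also fell (limma adjusted p = 0.0173 and 0.0314), and their calls held in 2 and 1 of the 6 fits that left out a library. Myc was at 0.0503 under upper-quartile scaling. The general Wnt target Axin2 was at 27.5 ± 3.36 FPKM in wild type against 31.6 ± 3.73 FPKM in Sp8 null and did not pass (log2 difference 0.19, limma adjusted p = 0.358).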

How the data were processed

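The authors deposited FPKM for each library in a single table, with Ensembl build 87 gene models per the file headers. The submitters' processing notes name TopHat2, Cufflinks and DESeq2 among the tools and the build GRCm38, and the use of strand is not given in the sources used here. The authors' deposited table also holds a fold change, a signed score, and a p-value whose adjustment is not stated. These were only quoted.

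The analysis used log2(FPKM + 1), which understates changes of low genes, and kept genes reaching 1 FPKM in 3 or more libraries. Genotype effects were estimated by limma 3.58.1 (R 4.3.3, trended prior variance), and two-sided p-values were adjusted over all 12133 tested genes (Benjamini-Hochberg, called under 0.05). The procedure was tested on simulated data. Relative depth is the commonest ratio of low FPKM values between libraries. Annotation and transcripts are GENCODE M21 (GRCm38), and promoters are RefSeq windows, which matched 6 of the 10 members.

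The members and gene lists were chosen with earlier results of these data known. Named genes were all 10 receptors, Sp8, up to 3 called genes with the smallest p in each pathway list, the 3 patterns nearest to each called receptor and the highest member of each marker list. Lrp5, Lrp6, Znrf3, Ndp, Tspan12, Smo, Sfrp1, Vangl2, Axin2, Nkd2, Dkk4, Epcam, Tfap2a, Lmx1b, Msx1 and Tcf21 fall outside this rule and were chosen after their values were seen. Alternatives changed the pseudocount, filter, scaling, trend, covariates, genes tested and libraries.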

Additional observations from a re-analysis of the deposited data

How the results depend on the processing

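Fzd1 kept its direction and its call under all 17 alternatives, with log2 differences between -2.11 and -1.94 (limma adjusted p between 2.11e-06 and 0.00222). No other tested receptor was called under any alternative that tested it. Of 117 values of the 7 receptors, 116 kept direction and side of the threshold, and Fzd3 turned to 0.05 under upper-quartile scaling.

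The number of all genes called, 829, was 342 with no filter on low values, 328 with a replicate block and 545 when the number that starts each sample name entered as a covariate. It was 251 with only the libraries whose names start with 5, an alternative chosen after seeing the data, and 316 (without wild-type embryo 2) to 642 with 1 library left out, fits with fewer samples. The share of calls higher in Sp8 null was 24.6%, which became 42.0% under upper-quartile scaling. The replicate block left Fzd1 at a limma adjusted p of 0.00057. The embryo numbers did not pair the libraries: deviations of same-numbered libraries correlated at -0.164, -0.145 and -0.07.

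The 17 pathway calls ranged from 9 to 13 with 1 library left out, being 9 without wild-type embryo 2 and 10 without Sp8 null embryo 1 or wild-type embryo 3, and were 6 with only the libraries whose names start with 5; these were chosen after seeing the data. The cause was not tested. Depth limits what can be said of Fzd4, Fzd5 and Fzd9, all under 1 FPKM.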
